A study of Mus musculus with 2 samples.

Results

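Zic1, Zic2, Zic4, Zic5 and Six3 are transcription factor genes of the rostral and dorsal midline of the forebrain, and the text follows their transcripts in septal and cortical cells at the corticoseptal boundary of the embryonic mouse brain. They were taken by gene symbol, and each of the 5 names matched 1 of the 32285 genes in the feature tables. Zic proteins are zinc finger factors related to the Gli effectors of hedgehog signalling, and Six3 is a homeodomain factor of the anterior forebrain. In humans, loss of ZIC2 or SIX3 causes holoprosencephaly, a failure to divide the forebrain at the midline. In the mouse forebrain, Zic genes are known for expression in the septum, in Cajal-Retzius cells and in dorsal midline tissue, and Six3 for the septum, the ventral forebrain and repression of Wnt genes at the front of the neural plate.

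The study profiled single cells of corticoseptal boundary tissue of E16.5 embryos with 10x Genomics 3' libraries, and asked how loss of Tcf4, a basic helix-loop-helix factor that binds E-box sequences, changes this tissue. It held 1 wild type (WT) library and 1 library of the genotype Tcf4f/f;Emx1Cre (Tcf4_cKO), in which both Tcf4 alleles are floxed and Cre is driven from Emx1, a gene of cortical progenitors. How many embryos each library pooled is not given in the sources used here. With 1 library per genotype no comparison has a replicate check, so no p-value is given, and all intervals below are exact 95% intervals that cover counting error only.

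After filters and doublet removal, 8634 WT and 10142 Tcf4_cKO cells remained, with medians of 9660 and 8152 UMIs (unique molecular identifiers, which count captured transcripts) per cell; 21 cell barcodes occurred in both libraries. The cells fell into 36 clusters, built without the 5 members and close relatives such as Six6, and were called pallial (cortical) or subpallial from other region genes such as Emx1 and Neurod6 or Gad2 and Dlx2. Those genes do not separate the septum from other subpallium, so the septal cells here are subpallial cells of dissected boundary tissue. Levels are CPM, the usual scaling of a gene's UMIs to the total UMIs of the summed cells of a group. The level of Tcf4 in pallial cells was 2437 CPM in WT and 1599 CPM in Tcf4_cKO, a Tcf4_cKO over WT ratio of 0.66 (0.65 to 0.66), against 0.91 (0.89 to 0.93) in subpallial cells; 3' tags do not show whether a transcript carries the floxed part. Glutamatergic neurons of the 2 libraries (1926 and 3036 cells) lay largely in different clusters: WT mainly in clusters 5 and 18 (891 and 512 WT cells against 6 and 3 Tcf4_cKO cells), and Tcf4_cKO mainly in clusters 12, 13, 14 and 24 (575, 588, 585 and 317 cells against 35, 10, 4 and 17) and in cluster 6 (612 against 251). Such clusters may mark a library and not a cell type.

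The genes lie in pairs. The spans given here are those of GENCODE. In mm10, Zic1 (chr9:91358058-91365810, minus strand) and Zic4 (chr9:91362413-91389348, plus strand) point away from each other and overlap over 3398 bases. Zic5 (chr14:122456795-122465677, minus strand) and Zic2 (chr14:122475435-122479852, plus strand) are also divergent, with 9757 bases between them. Six3 (chr17:85613608-85629302, plus strand) overlaps the antisense gene Six3os1 over 4791 bases and the antisense gene Gm28528 over 1676 bases. Whether counting used strand is not given in the sources used here, so reads from the overlapping stretches cannot be told apart, and reads shared by Zic paralogs could be split between them.

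Because the targeted factor binds the E-box CANNTG, the stretch before the RefSeq start (GRCm38.p6) that holds neither UTR nor coding bases is shown for the 4 genes that RefSeq's promoter table lists, 5′ to 3′ on the gene's strand, with each CANNTG in capitals. Zic2 was not in the table. The windows are chr9:91365811-91366018 (minus) for Zic1, chr9:91368722-91368811 (plus) for Zic4, chr14:122465678-122465908 (minus) for Zic5 and chr17:85620584-85620833 (plus) for Six3. Those of Zic4 and Six3 lie inside the GENCODE spans above, so their RefSeq starts differ from the GENCODE starts. They also lie past the ends of Zic1 and Six3os1. By these RefSeq starts, Zic4 and Six3 would not reach into the spans of Zic1 and Six3os1.
Zic1: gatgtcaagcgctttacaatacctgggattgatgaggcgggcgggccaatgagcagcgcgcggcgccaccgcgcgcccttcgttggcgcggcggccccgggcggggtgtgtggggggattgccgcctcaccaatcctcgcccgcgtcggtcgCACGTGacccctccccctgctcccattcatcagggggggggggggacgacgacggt
Zic4: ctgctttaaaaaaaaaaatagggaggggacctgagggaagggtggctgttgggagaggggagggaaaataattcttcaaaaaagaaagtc
Zic5: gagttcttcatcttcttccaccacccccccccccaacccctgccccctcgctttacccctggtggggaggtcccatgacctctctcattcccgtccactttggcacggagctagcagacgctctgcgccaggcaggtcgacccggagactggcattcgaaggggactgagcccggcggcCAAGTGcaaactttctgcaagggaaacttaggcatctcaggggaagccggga
Six3: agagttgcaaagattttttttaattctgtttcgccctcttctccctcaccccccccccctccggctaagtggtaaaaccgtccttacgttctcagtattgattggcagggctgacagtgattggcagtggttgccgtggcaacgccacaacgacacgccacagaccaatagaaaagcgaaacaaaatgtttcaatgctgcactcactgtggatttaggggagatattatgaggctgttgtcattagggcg
Zic1 held 1 such sequence, CACGTG, in 208 bases, and Zic5 held 1, CAAGTG, in 231 bases. The 90 bases of Zic4 and the 250 bases of Six3 held none. In the whole 250 bases before the start, Zic1, Zic4 and Zic5 each held 1 and Six3 held 0. Since CANNTG reads the same on both strands as a pattern, 1 search covers both. It occurs in 66.2% of the 32851 windows of 250 bases before a RefSeq start, and CACGTG in 6.02%.

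All 5 genes had higher levels in subpallial than in pallial cells of each library, and Six3 differed most in ratio. In the WT library Zic1, known for its part in cerebellar and dorsal midline development, was at 979 CPM (968 to 991) in 3257 subpallial cells and 220 CPM (216 to 225) in 3883 pallial cells. In the Tcf4_cKO library Zic1 was at 949 and 231 CPM. Its ratio was 4.44 (4.34 to 4.55) in WT and 4.10 (4.01 to 4.19) in Tcf4_cKO. Neither library showed overlapping intervals for the regions. Zic4, the partner of Zic1 on chromosome 9, was at 509 and 93.0 CPM in WT, a ratio of 5.47, and at 488 and 77.0 CPM in Tcf4_cKO, a ratio of 6.33. Zic2, whose loss disturbs midline closure, was at 210 and 36.4 CPM in WT, a ratio of 5.77, and at 199.9 and 32.3 CPM in Tcf4_cKO, a ratio of 6.20. Zic5, its neighbour, was at 306 and 67.2 CPM in WT and at 275 and 66.1 CPM in Tcf4_cKO, with ratios of 4.55 and 4.16. Six3 was at 241 CPM (235 to 247) and 8.56 CPM (7.73 to 9.45) in WT, and at 261 and 7.91 CPM in Tcf4_cKO. Its ratio was 28.1 (25.4 to 31.2) in WT and 33.0 (29.9 to 36.5) in Tcf4_cKO. Its pallial level lay below that of microglia (21.6 and 11.1 CPM), so this ratio rests on a low level whose source was not tested. All 5 members passed 1.5-fold in each library, on the scale of log2(CPM + 5), which all such counts below use; 6.55% of the genes with at least 20 UMIs did so in WT and 7.7% in Tcf4_cKO. The members' median log2 ratio was 2.38 in WT and 2.46 in Tcf4_cKO, and that of all these genes -0.0013 and 0.0088. On that log2 scale Six3 was at 4.18 in WT and 4.36 in Tcf4_cKO, at 3.10 and 3.31 with doublet calls kept in, and at 3.43 and 3.74 with regions called cell by cell. With free RNA subtracted, Six3 was at 4.34 and 4.47. Without the clusters that held over 90% of their cells from 1 library, Zic2 and Zic4 of WT went from 2.38 and 2.39 to 1.79 and 1.80, and Zic5 from 2.105 to 1.47 in WT and from 1.98 to 1.37 in Tcf4_cKO.

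The pooled contrast hid a difference between cell classes. Six3 separated subpallial from pallial cells in cycling progenitors, astroglia and neurons. Zic2 and Zic5 did so strongly in neurons and weakly or in the opposite direction in progenitors and astroglia. In the WT library Zic2 was at 113 CPM in subpallial and 80.5 CPM in pallial cycling progenitors, a ratio of 1.40 (1.23 to 1.59). In neurons it was at 251 CPM (244 to 257) in GABAergic and 9.67 CPM (8.41 to 11.1) in glutamatergic cells, a ratio of 25.9 (22.6 to 29.9). In the Tcf4_cKO library these ratios were 1.39 and 29.8. The neuronal contrast of Zic2 was thus wide in each library, and the progenitor contrast stayed under 1.5-fold.

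Zic5 had ratios of 1.51 (1.38 to 1.65) in cycling progenitors and 30.4 (26.8 to 34.6) in neurons of the WT library, and of 1.39 and 31.7 in the Tcf4_cKO library. In astroglia, where each side was a single cluster, the order turned. Pallial astroglia were cluster 9, led by Hopx, with Ung, Mcm3 and Hells among its leading genes and a median of 10463 UMIs per cell. Subpallial astroglia were cluster 16, led by Creg2 and Mt3, with a median of 6468 UMIs. The part of such differences between the 2 clusters in the ratios was not tested. Zic5 was at 52.5 CPM (42.5 to 64.1) in subpallial and 116 CPM (104 to 128) in pallial astroglia of WT, a ratio of 0.45 (0.36 to 0.57). The Tcf4_cKO values were 66.6 and 135 CPM, a ratio of 0.49 (0.41 to 0.59). Zic2 was at 37.7 CPM in subpallial and 60.3 CPM in pallial astroglia of WT, a ratio of 0.63 (0.47 to 0.83). In Tcf4_cKO it was at 53.4 and 56.4 CPM, a ratio of 0.95 (0.75 to 1.19), an interval that holds 1. So the lower level of Zic5 in subpallial astroglia was seen in both libraries and that of Zic2 in WT. It did not hold for the astroglia of the commissural plate, described below. Their ratios over pallial astroglia were 1.70 in WT and 1.40 in Tcf4_cKO for Zic5, and 1.91 and 1.82 for Zic2.

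The chromosome 9 pair kept its direction across classes. Zic1 had subpallial over pallial ratios of 2.39 in cycling progenitors, 2.07 in astroglia and 5.93 in neurons of WT, and of 2.09, 2.03 and 4.56 in Tcf4_cKO. Zic4 had ratios of 1.38, 2.1 and 14.9 in WT and of 1.75, 2.65 and 10.7 in Tcf4_cKO. Six3 had ratios of 15.9 (12.7 to 20.3), 43.4 (27.8 to 71.7) and 39.6 (33.3 to 47.3) in WT, and of 15.2, 52.1 and 46.8 in Tcf4_cKO. Six3 thus had ratios over 10 in each of these 3 pairs, each over a pallial level near or below that of microglia, while the Zic ratios in progenitors and astroglia lay between 0.45 and 2.65. All 5 members were higher by 1.5-fold in GABAergic than in glutamatergic neurons, where 8.05% of genes in WT and 8.56% in Tcf4_cKO were. In astroglia all 5 passed 1.5-fold in WT, 3 higher and 2 lower, where 30.5% of genes passed in either direction. In Tcf4_cKO astroglia 4 passed, 3 higher and 1 lower, where 30.3% did. In cycling progenitors 2 in WT and 3 in Tcf4_cKO were higher, where 8.34% and 7.99% were.

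**Figure D1:**
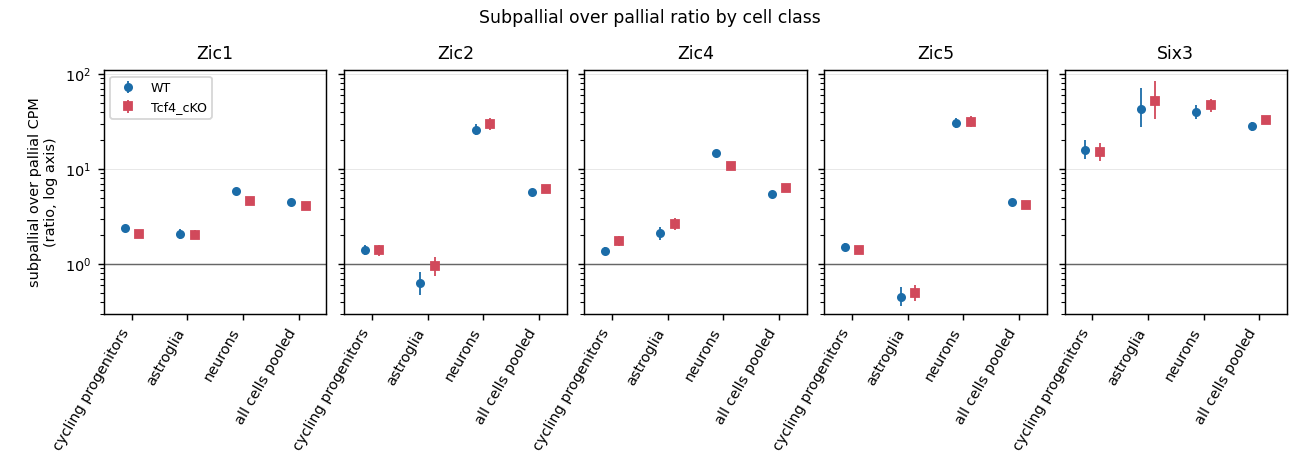
Ratio of subpallial over pallial CPM (log axis) for each gene in cycling progenitors, astroglia, neurons (GABAergic over glutamatergic) and all cells pooled, with WT as circles, Tcf4_cKO as squares and exact 95% intervals as bars. Six3 lies above 10 in every class, while Zic2 and Zic5 go from about or below 1 in astroglia to over 25 in neurons.

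The levels behind these ratios show where Zic2 and Zic5 differ. Along the pallial classes of WT, Zic2 was at 80.5 CPM in cycling progenitors, 60.3 CPM in astroglia, 22.75 CPM in intermediate progenitors (Eomes-positive cells that give rise to glutamatergic neurons) and 9.67 CPM in glutamatergic neurons. The Tcf4_cKO levels were 78.0, 56.4, 19.95 and 7.79 CPM. Zic5 was at 148, 116, 55.5 and 11.4 CPM in WT, and at 154, 135, 51.5 and 9.65 CPM in Tcf4_cKO. Each step of this series was downward in each library for both genes. Zic1 showed no such series: it was at 211, 156, 217 and 196 CPM in WT and at 227, 173, 193 and 243 CPM in Tcf4_cKO. Zic4 lay between them, at 137, 85.2, 81.3 and 40.7 CPM in WT and at 92.8, 76.6, 69.3 and 53.5 CPM in Tcf4_cKO. The glutamatergic levels of Zic1 and Zic4 leaned on cluster 15, described below, with 206 of 1926 WT and 350 of 3036 Tcf4_cKO cells. It held 1901 of 4300 and 2923 of 6544 Zic1 UMIs, and 528 of 892 and 674 of 1442 Zic4 UMIs. Six3 was between 5.17 and 11.1 CPM in all 4 pallial classes of both libraries. The unnamed pallial clusters 7 (led by Wnt8b) and 19 (led by Neurod4) were in none of these classes and counted in pooled pallial cells. Cluster 7 had Six3 at 19.3 CPM in WT and 15.0 CPM in Tcf4_cKO, and Zic4 at 208 and 161 CPM. Cluster 19 had Six3 at 15.1 and 18.1 CPM and Zic4 at 223 and 174 CPM.

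Subpallial classes had another order. Zic2 was at 113 CPM in cycling progenitors, 37.7 CPM in astroglia and 251 CPM in GABAergic neurons of WT, and at 109, 53.4 and 233 CPM in Tcf4_cKO. Zic5 was at 223, 52.5 and 347 CPM in WT and at 215, 66.6 and 306 CPM in Tcf4_cKO. Zic1 was at 504, 323 and 1162 CPM in WT and at 474, 352 and 1108 CPM in Tcf4_cKO. Zic4 was at 188, 179 and 605 CPM in WT and at 162, 203 and 573 CPM in Tcf4_cKO. The 4 Zic members were thus highest in neurons among these 3 classes in each library. Six3 was at 173, 267 and 242 CPM in WT and at 169, 269 and 269 CPM in Tcf4_cKO, with neurons and astroglia close together. The unnamed subpallial cluster 20 (led by Gsx1), in none of these 3 classes, had Six3 at 335 CPM in WT and 316 CPM in Tcf4_cKO.

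**Figure D2:**
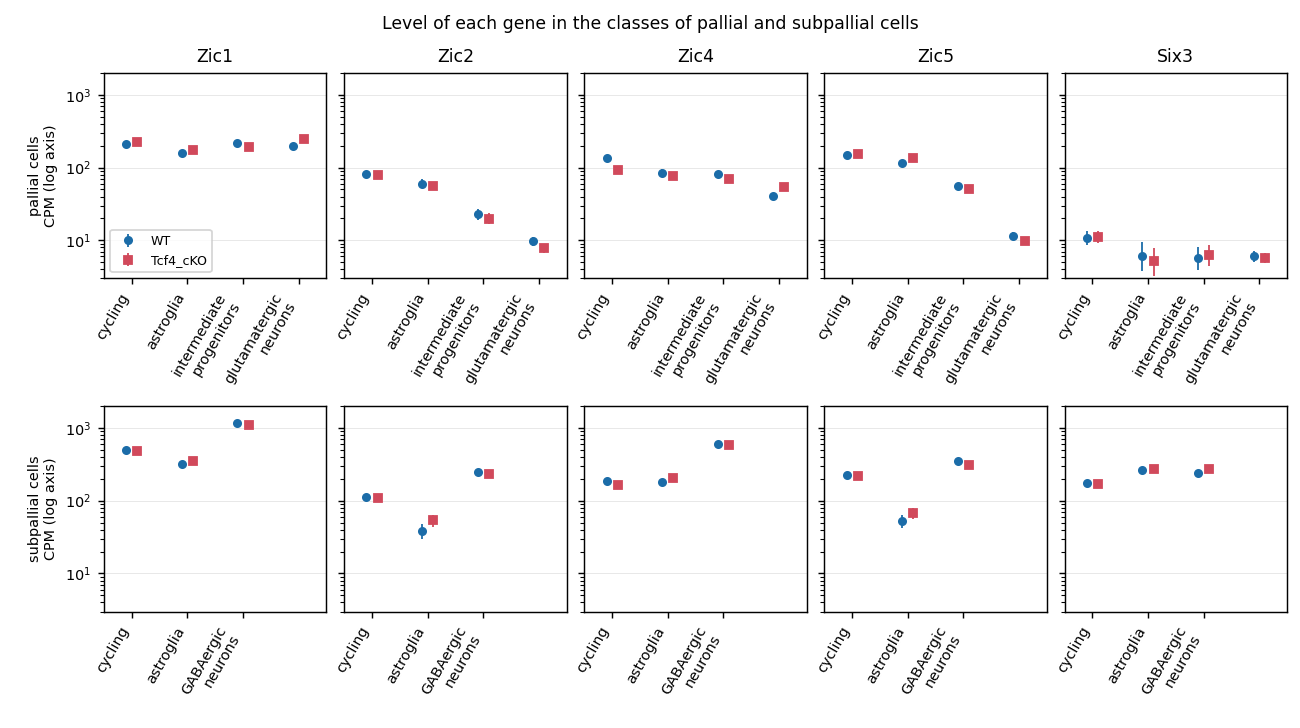
CPM (log axis) of each gene in 4 pallial classes (upper row) and 3 subpallial classes (lower row), with WT as circles, Tcf4_cKO as squares and exact 95% Poisson intervals as bars. Zic2 and Zic5 step down from pallial cycling progenitors to glutamatergic neurons, Zic1 does not, and Six3 stays at or below 11.1 CPM in each pallial class.

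The level in microglia helps to read the low values. Microglia, which come from outside the neural tube, had 83.4 CPM Zic1, 24.7 CPM Zic2, 57.1 CPM Zic4, 41.7 CPM Zic5 and 21.6 CPM Six3 in 53 WT cells, and 60.1, 9.49, 15.8, 33.2 and 11.1 CPM in 58 Tcf4_cKO cells. Zic2, Zic5 and Six3 of glutamatergic neurons lay below these levels in both libraries, so their neuronal ratios above are set against levels not told apart from background. Six3 of pallial astroglia and cycling progenitors, at 5.17 to 11.1 CPM, was near or below the level in microglia too, and the same holds for each ratio of Six3 over a pallial class. Microglia are a rough guide, since their UMIs sat in few cells: in WT, Zic5 in 13.2% and Six3 in 9.43% of 53 cells. Oligodendrocyte progenitors had less Zic2 (4.39 CPM in WT and 2.42 CPM in Tcf4_cKO) and less Zic5 (6.58 and 9.68 CPM), from at most 4 UMIs each. Their Six3 was higher, at 30.7 and 62.9 CPM. The source of the low levels was not tested. Pooled over clusters, Zic1 of glutamatergic neurons lay above that of microglia in both libraries, and Zic4 in Tcf4_cKO but not in WT. Single clusters could lie lower: Zic1 was at 27.5 CPM in cluster 14 and 28.1 CPM in cluster 24 of Tcf4_cKO. Thinned to 3000 UMIs per cell, Six3 was found in 39.1% of WT and 39.4% of Tcf4_cKO subpallial cells, in 1.73% and 1.56% of pallial cells and in 1.89% and 3.45% of microglia. Without thinning these shares were 59.9% and 57.5%, 5.67% and 4.71%, and 9.43% and 6.90%, at median depths of 8348 and 7377, 10695 and 8616, and 10061 and 8745 UMIs. Zic1 was found in 81.4% and 79.4% of GABAergic neurons, 31.8% and 34.1% of glutamatergic neurons and 9.43% and 13.8% of microglia at 3000 UMIs.

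Within the subpallial neurons the genes marked different clusters. Cluster 23 (leading genes Trhde, Calb2 and Pnoc) had the highest Zic1 of all clusters, at 2144 CPM in WT and 2387 CPM in Tcf4_cKO, and also the highest Zic2 (415 and 462 CPM) and Zic5 (575 and 545 CPM). Its Six3 was at 91.3 and 124 CPM, 13th in order. Cluster 1 (Lgals7, Vstm2l and Zcchc12) had the highest Six3, at 565 CPM (544 to 586) in WT against 561 CPM (542 to 580) in Tcf4_cKO, and the highest Zic4, at 1086 and 1017 CPM. Clusters 2 (Trpc4) and 3 (Aldh1a3 and St18) followed with Zic1 between 1135 and 1273 CPM. For Zic1, the intervals of clusters 2 and 3 overlapped in Tcf4_cKO but not in WT. Zcchc12 and Trpc4, leading genes of clusters 1 and 2, are on the list of septal neuron genes described below.

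At the low end for Zic1 stood 3 clusters of GABAergic neurons. Cluster 27 (Sst, the gene of somatostatin) had 61.7 CPM Zic1 in WT and 61.9 CPM in Tcf4_cKO, 3.63 and 13.6 CPM Six3, and 7.26 and 4.53 CPM Zic2. Cluster 32 (Npas1 and Adarb2) had 109 CPM Zic1 and 32.7 CPM Six3 in WT, and cluster 28 (Nwd2 and Gbx1) had 66.6 CPM Zic1 and 9.60 CPM Six3 in Tcf4_cKO. The Zic1 intervals of these clusters overlapped that of microglia of the same library. Among the 11 subpallial clusters with at least 30 WT cells, Zic1 ran from 61.7 to 2144 CPM with a median of 548 CPM, and Six3 from 3.63 to 565 CPM with a median of 157 CPM. Subpallial cells were therefore not uniform for these genes.

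**Figure D3:**
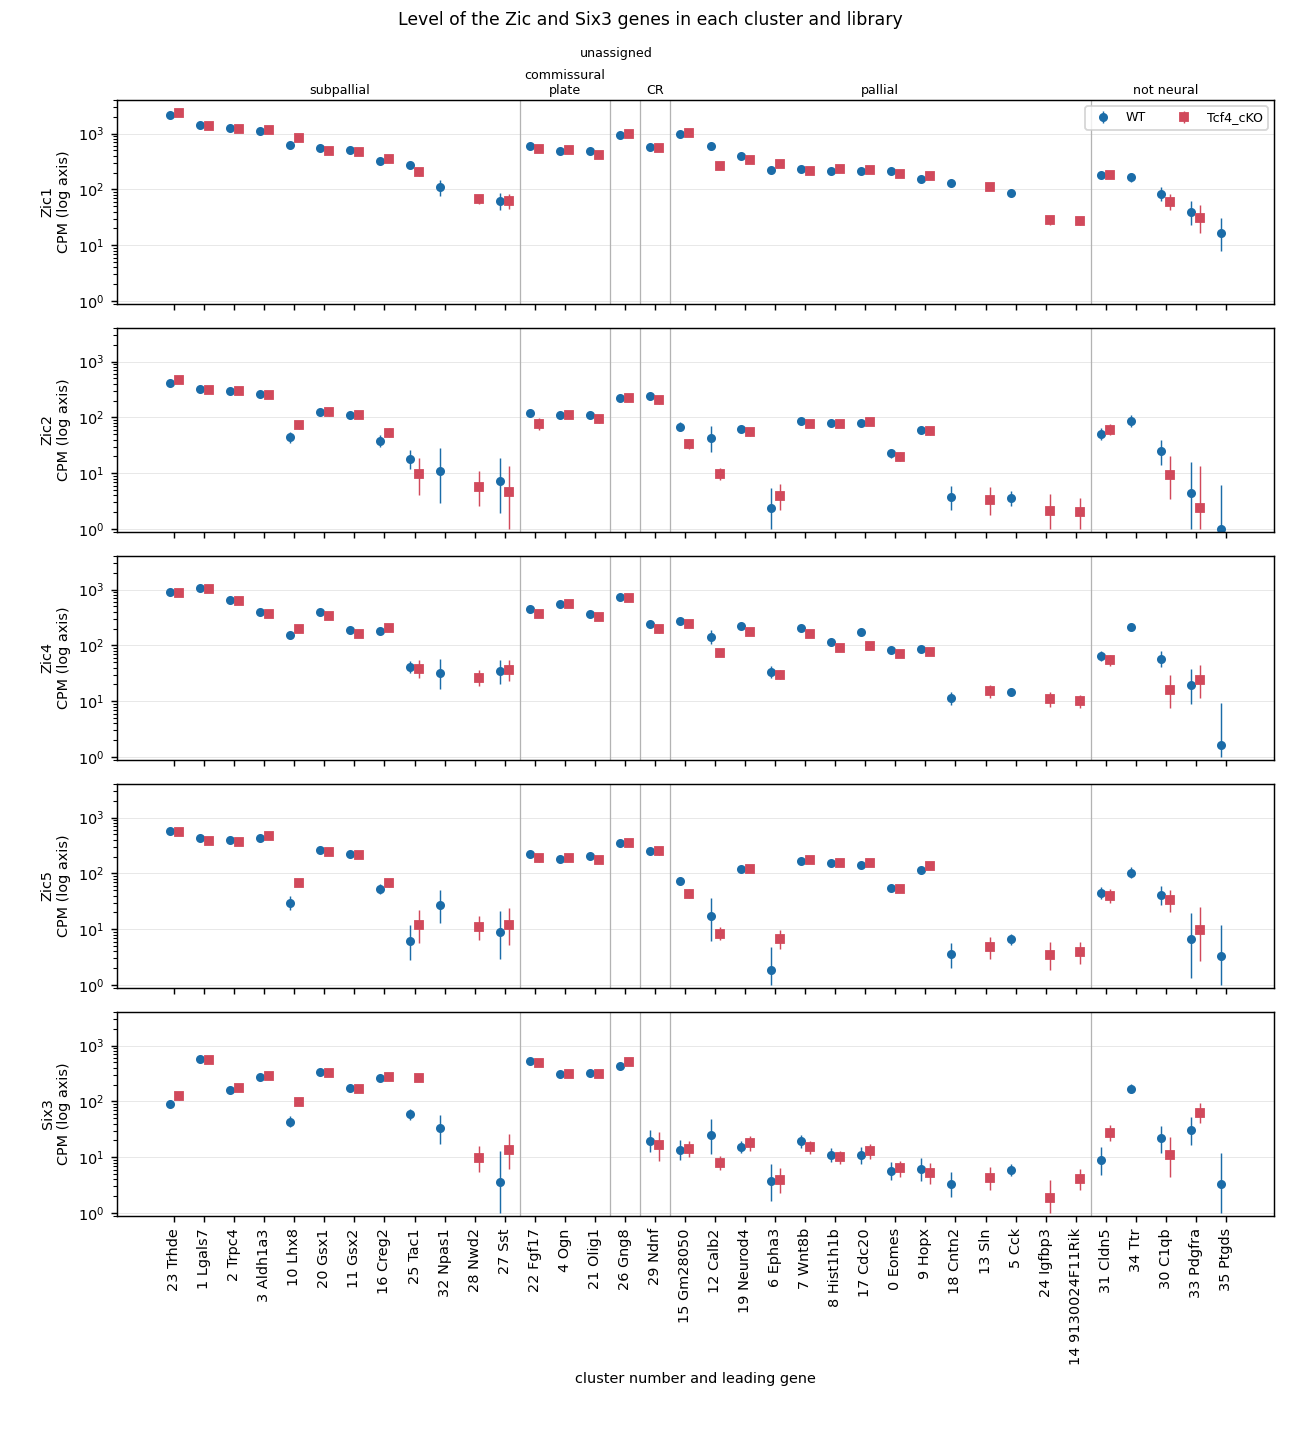
CPM (log axis) of each gene in every cluster with at least 30 cells in the library, grouped by region and ordered by Zic1, with WT as circles, Tcf4_cKO as squares and exact 95% Poisson intervals as bars; values below 1 CPM are drawn at 1, and CR marks Cajal-Retzius cells. The Sst cluster 27 sits at the low end of the subpallial group, and pallial cluster 15 reaches 1001 and 1030 CPM Zic1 with Six3 at 13.7 and 14.1 CPM.

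Zic and Six3 did not always go together. Cluster 15, pallial glutamatergic neurons led by Gm28050, Ebf1 and Lhx9, had 1001 CPM Zic1 (957 to 1047) in 206 WT cells and 1030 CPM (993 to 1068) in 350 Tcf4_cKO cells, 5th in order, and 278 and 237 CPM Zic4. Its Six3 was at 13.7 and 14.1 CPM, at the level of microglia. Cajal-Retzius cells, the reelin-secreting cells of the cortical surface (cluster 29, 74 WT and 64 Tcf4_cKO cells), had 571 and 547 CPM Zic1, 239 and 207 CPM Zic2, and 253 and 252 CPM Zic5. Their Six3 was at 19.8 and 16.3 CPM. All 5 genes were 1.5-fold higher there than in pallial cells of each library, where 15.7% of genes in WT and 16.7% in Tcf4_cKO were, but Six3 rested on 20 and 12 UMIs and its level was near that of microglia. Oligodendrocyte progenitors (37 and 39 cells) had Six3 at 30.7 and 62.9 CPM from 14 and 26 UMIs, above microglia in Tcf4_cKO and with overlapping intervals in WT, and Zic1 at 39.5 and 31.4 CPM, below microglia.

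The commissural plate, the rostral midline tissue that secretes Fgf8 and Fgf17 and near which callosal axons cross, carried all 5 genes. In all its cells pooled, 5 of 5 members were 1.5-fold higher than in pallial cells of each library, where 15.9% of genes in WT and 15.2% in Tcf4_cKO were. Its astroglia (clusters 4 and 22) had Six3 at 383 CPM in 844 WT cells and 350 CPM in 494 Tcf4_cKO cells. The ratios over the low level of pallial astroglia (6.15 and 5.17 CPM) were 62.2 (40.2 to 102) and 67.8 (44.6 to 109). Zic4 in these commissural plate astroglia was at 512 and 508 CPM, ratios of 6.01 and 6.63. Zic1 was at 531 and 508 CPM, Zic2 at 115 and 103 CPM and Zic5 at 197 and 189 CPM. Zic5 was 3.76 times (3.06 to 4.66) its level in subpallial astroglia of WT and 2.84 times in Tcf4_cKO, and Zic2 was 3.05 and 1.93 times. Over pallial astroglia 5 members in WT and 4 in Tcf4_cKO were 1.5-fold higher, where 17.8% and 16.3% of genes were. Over subpallial astroglia 4 and 3 were, where 11.5% and 7.32% of genes were. Cluster 22, led by Fgf17 and Fgf8, had 519 and 484 CPM Six3. Cluster 4, with 550 of the 844 WT and 383 of the 494 Tcf4_cKO astroglia, had 308 and 310 CPM Six3. It was led by Ogn, Aldh1l1 and Foxj1, with no Fgf gene among its leading genes. Its region was called from its mean score over genes such as Fgf8, Fgf17 and Spry1. Cluster 26 (Gng8 and Onecut genes), which no region could be given, had 436 and 508 CPM Six3 and 930 and 994 CPM Zic1. The 35 WT cells of ependymal or choroid plexus type had 170 CPM Six3 and 165 CPM Zic1.

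Single cells carried the genes together in the same regions. At 3000 UMIs, 36.0% of WT and 36.8% of Tcf4_cKO subpallial cells had a UMI of at least 1 of the 4 Zic members and of Six3, against 1.39% and 1.16% of pallial cells and 61.3% and 56.5% of commissural plate cells. A Zic UMI without Six3 was found in 47.5% and 45.5% of subpallial and 47.8% and 48.1% of pallial cells. In microglia both kinds of UMI were found in 1.89% and 1.72% of cells. In GABAergic neurons pooled over clusters, pairs of members were found together, whether or not they are neighbours on a chromosome. The part of the mix of clusters in this was not tested. In GABAergic neurons of WT, Zic1 was found in 95.9% (94.7 to 96.8) of cells with a Zic4 UMI and 59.4% (56.2 to 62.5) of cells without. Zic2 was found in 62.7% (59.9 to 65.4) of cells with a Zic5 UMI and 23.03% (20.7 to 25.5) without. Tcf4_cKO gave 96.3% and 55.3%, and 61.6% and 22.3%. Of the pairs on different chromosomes in WT, Zic1 was found in 96.5% of cells with and 70.2% without Zic2, and in 94.4% with and 74.1% without Six3, and Zic2 in 56.8% with and 35.0% without Six3. Inside clusters 1 and 3 the contrast was smaller, to different degrees. In cluster 1 of WT, Zic1 was found in 97.4% with and 88.7% without Zic4, and Zic2 in 64.2% with and 46.8% without Zic5. Of the pairs on different chromosomes there, Zic1 was found in 96.5% with and 96.4% without Zic2, and in 97.1% with and 94.8% without Six3. Zic2 was found there in 62.6% with and 48.7% without Six3. Cluster 3 of WT kept more of the Zic contrasts, with Zic2 found in 57.5% with and 23.4% without Zic5. Zic1 was found in 95.2% of its cells with and 79.2% without Zic4, and in 96.1% with and 81.7% without Zic2. Its contrast of Zic2 by Six3 was smaller than in cluster 1, at 48.4% with and 41.0% without. In pallial astroglia Zic2 was found in 20.7% (12.6 to 31.1) of cells with and 13.8% (9.19 to 19.5) without Zic5 in WT, and in 14.9% with and 17.5% without in Tcf4_cKO, with overlapping intervals in each library.

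The Zic members were among the genes most like each other over clusters. Likeness was Pearson's r of log2(CPM + 5) over 63 points, the clusters of each library with at least 30 cells, among 13472 genes; points share libraries and lineages, so no p is given. The genes closest to Zic1 included Zic4 (0.90), Zic2 (0.85), Ccdc96 (0.78) and Zic5 (0.77). For Zic2 the 5 closest were Zic5 (0.96), Zic4 (0.93), Clybl (0.90), Pcca (0.89) and Zic1 (0.85). For Zic4 they were Zic2 (0.93), Zic1 (0.90), Zic5 (0.90), Clybl (0.87) and Ccdc96 (0.83), and for Zic5 they were Zic2 (0.96), Clybl (0.90), Zic4 (0.90), Pcca (0.88) and 2610035F20Rik (0.84). Six3 was less close to the Zic members than they were to each other. Of the 13472 genes it still ranked 15th for Zic4, 27th for Zic2, 30th for Zic1 and 37th for Zic5. Its closest were Six3os1 (0.92), which overlaps it, Megf11 (0.83), Usp51 (0.82), the forebrain homeobox gene Otx2 (0.82) and the ventral forebrain homeobox gene Vax1 (0.81), which was among the genes used to call subpallial cells. Of the 4 Zic members, Zic4 had the highest r with Six3 (0.75).

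Several of the genes named for Zic2 and Zic5 lie beside them. Clybl (chr14:122181704-122402234), a mitochondrial enzyme gene, and Pcca (chr14:122534324-122891100), which encodes a subunit of propionyl-CoA carboxylase, flank the Zic5 and Zic2 pair, and 2610035F20Rik (chr14:122470284-122475199) lies between Zic5 and Zic2. Clybl was at 60.8 CPM in GABAergic and 3.56 CPM in glutamatergic neurons of WT, and at 61.7 and 3.38 CPM in Tcf4_cKO. Pcca was at 54.6 and 11.6 CPM in WT and at 50.2 and 10.1 CPM in Tcf4_cKO. Within 500 kb of Zic2, 11 genes including Zic2 were counted. The 6 other genes from Clybl to Pcca, of which Gm5089 and Gm10837 were singled out after their values were seen, had r with Zic2 between 0.69 (Gm10837) and 0.96 (Zic5), and ranked within the closest 17 of 13472 genes. Ggact, which overlaps Pcca on the other strand, and Tmtc4 beyond it had r of 0.23 and 0.48, and Tm9sf2 and Ubac2 on the other side 0.25 and 0.04. Within 500 kb of Zic1 and of Six3 only 4 genes each were counted, the member included, so a run could hardly have been seen there. Apart from Zic4 and Six3os1, Gm28652 and Gm29478 beside Zic1 had r of 0.43 and 0.36 with it. Camkmt and Srbd1 beside Six3 had r of 0.43 and -0.13 with it.

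**Figure D4:**
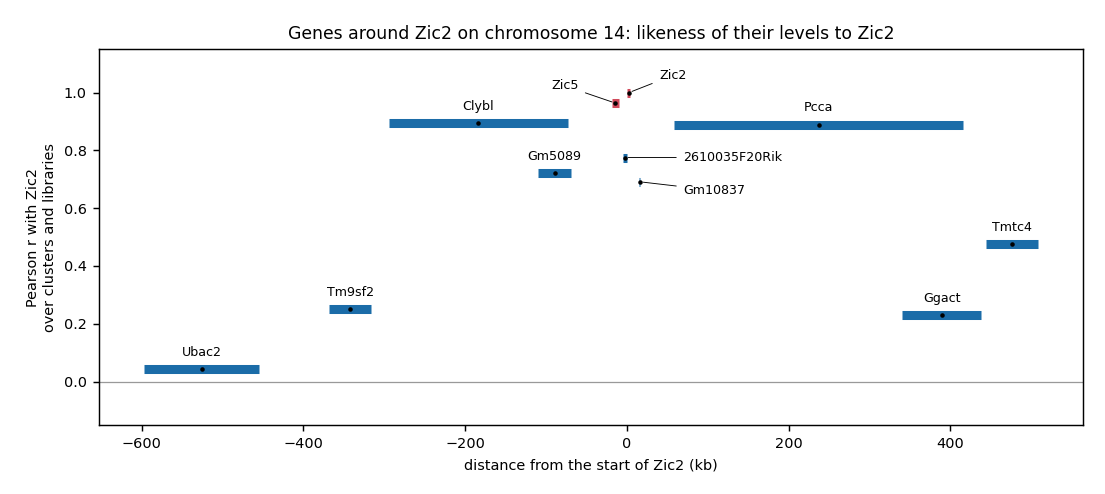
Pearson r of each counted gene with Zic2 over 63 points of cluster and library (vertical axis) against the gene's extent in kb from the start of Zic2 (horizontal axis), with the members in red and other genes in blue. Genes from Clybl to Pcca lie at 0.69 or higher, and Ubac2, Tm9sf2, Ggact and Tmtc4 at 0.48 or lower.

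Between the genotypes the 5 genes were within 1.5-fold in each class compared here. Classes of few cells outside this comparison differed more. Ependymal or choroid plexus cells (35 WT and 24 Tcf4_cKO) had Zic4 at 210 and 99.9 CPM, Zic5 at 103 and 50.8 CPM and Six3 at 170 and 102 CPM. Their Zic1 was at 165 and 125 CPM and Zic2 at 86.8 and 50.8 CPM. Zic4 in microglia was at 57.1 and 15.8 CPM, and Six3 in oligodendrocyte progenitors at 30.7 and 62.9 CPM. In subpallial cells the Tcf4_cKO over WT ratio was 0.97 (0.95 to 0.99) for Zic1, 0.95 (0.92 to 0.99) for Zic2, 0.96 (0.94 to 0.98) for Zic4, 0.90 (0.87 to 0.93) for Zic5 and 1.08 (1.05 to 1.12) for Six3. In pallial cells, where Emx1 drives Cre, it was 1.05 (1.02 to 1.08) for Zic1, 0.89 (0.83 to 0.95) for Zic2, 0.83 (0.79 to 0.87) for Zic4, 0.98 (0.94 to 1.03) for Zic5 and 0.92 (0.80 to 1.06) for Six3. None of the 5 passed 1.5-fold in subpallial cells, where 0.381% of genes did, in pallial cells, where 1.22% did, or in commissural plate cells, where 1.13% did. None did in the 8 other classes compared. The share of genes that did was 5.35% in subpallial and 2.16% in pallial astroglia, 1.55% in subpallial and 1.17% in pallial cycling progenitors, 0.504% in GABAergic neurons, 2.64% in glutamatergic neurons, 1.65% in intermediate progenitors and 10.5% in Cajal-Retzius cells.

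The widest difference among these classes was that of Zic4 in pallial cycling progenitors, at 137 CPM (129 to 145) in WT against 92.8 CPM (86.7 to 99.3) in Tcf4_cKO, a ratio of 0.68 (0.62 to 0.74) just inside the limit. Of its 2 clusters, cluster 17 had 172 and 97.2 CPM, a ratio of 0.56 (0.49 to 0.65), and cluster 8 had 113 and 89.9 CPM, a ratio of 0.79 (0.70 to 0.90). Zic1 in the same cells was at 211 and 227 CPM. In glutamatergic neurons Zic4 was instead at 40.7 and 53.5 CPM, a ratio of 1.32 (1.21 to 1.43), and Zic1 at 196 and 243 CPM, a ratio of 1.24 (1.19 to 1.29). There the libraries filled different clusters (5 and 18 against 12, 13, 14 and 24), and the part of this in the ratios was not tested.

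**Figure D5:**
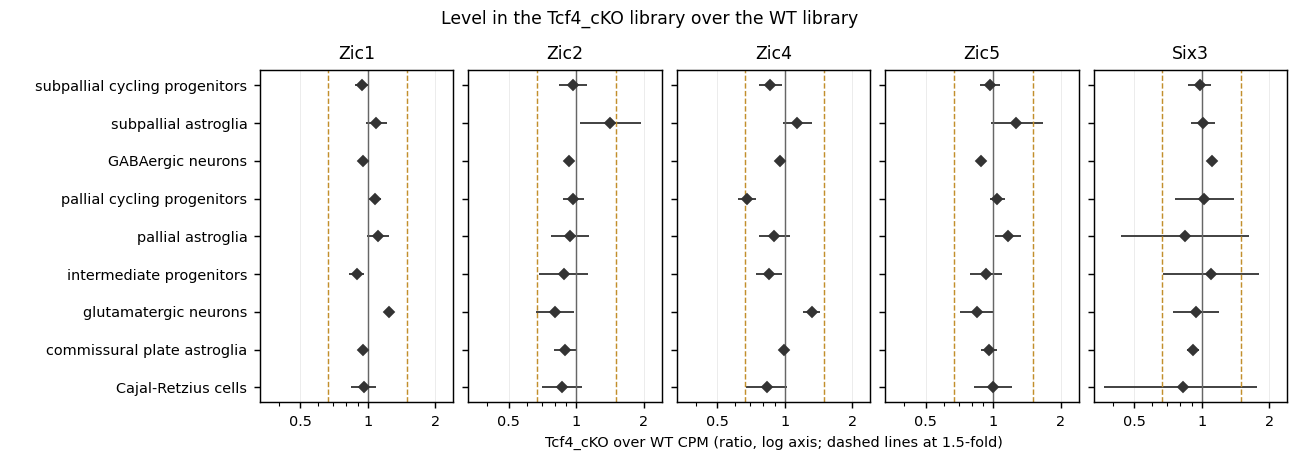
Ratio of Tcf4_cKO over WT CPM (log axis) for each gene in 9 classes, with exact 95% intervals as bars and dashed lines at 1.5-fold. Every point lies inside the dashed lines, and Zic4 in pallial cycling progenitors, at 0.68, lies nearest to the lower line.

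Some clusters differed more than their class; those given here were singled out after their values were seen. Six3 in cluster 25, GABAergic neurons led by Tac1 and Ebf1, was at 58.7 CPM (46.9 to 72.6) in 163 WT cells and 267 CPM (233 to 305) in 115 Tcf4_cKO cells, a ratio of 4.55 (3.53 to 5.91). Its antisense neighbour Six3os1 had 7 and 26 UMIs. The cluster's leading genes differed as well: Tac1, the gene of substance P, was at 930 and 207 CPM and Ebf1 at 1328 and 430 CPM. Their part in the Six3 ratio was not tested. In cluster 10, GABAergic neurons led by Lhx8 and Lhx6, Six3 was at 43.3 and 97.7 CPM, a ratio of 2.26 (1.75 to 2.95), and Zic5 at 29.6 and 68.3 CPM, a ratio of 2.30 (1.69 to 3.19). There Lhx8 was at 718 and 728 CPM, Nkx2-1 at 284 and 532 CPM and Tcf4 at 443 and 754 CPM, and their part in the ratios was not tested.

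In the Zic1-rich pallial cluster 15, Zic2 was at 68.5 CPM (57.2 to 81.3) in WT against 33.8 CPM (27.4 to 41.3) in Tcf4_cKO, a ratio of 0.49 (0.38 to 0.65), and Zic5 at 73.8 and 43.3 CPM, a ratio of 0.59 (0.46 to 0.75). Zic1 there had a ratio of 1.03 (0.97 to 1.09). These were the 2 members past 1.5-fold lower in cluster 15, where 2.92% of genes were, and Ebf1 was at 340 and 572 CPM. In cluster 12 (Calb2 and Cyp26b1) all 5 members were past 1.5-fold lower, where 9.18% of genes were, with Zic1 at 591 and 261 CPM. That cluster held 35 WT and 575 Tcf4_cKO cells, and the WT values of Zic5 and Six3 rested on 6 and 9 UMIs. In cluster 22, the Fgf17 and Fgf8 cells of the commissural plate, Zic2 was at 122 CPM (110 to 135) in WT against 76.9 CPM (60.5 to 96.4) in Tcf4_cKO, a ratio of 0.63 (0.49 to 0.81), while Six3 had a ratio of 0.93 (0.84 to 1.03).

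Other genes of these pathways differed between regions in either direction; in the pooled contrast 7.19% of genes in WT and 6.63% in Tcf4_cKO were 1.5-fold lower in subpallial cells. Of 10 Gli, Glis and hedgehog pathway genes, 2 were 1.5-fold higher and 3 lower in subpallial than pallial cells of WT, and 3 higher and 3 lower of the 9 with enough UMIs in Tcf4_cKO. Ptch1, the hedgehog receptor and a target of its signalling, was at 91.8 and 23.9 CPM in WT. Gli3, which restrains hedgehog signalling in the dorsal forebrain, was at 13.6 and 39.7 CPM. Between genotypes none of this list passed 1.5-fold in subpallial, pallial or commissural plate cells. Of the 10 tested relatives of Six3 and of its Eya and Dach cofactors, 2 were higher and 2 lower in subpallial WT cells. Those higher were Six3os1 (70.6 and 2.63 CPM) and Six6, a close relative of Six3, at 3.91 and 0.07 CPM from 112 and 3 UMIs; those lower were Eya1 (3.35 and 28.7 CPM) and Dach1 (2.83 and 36.8 CPM). Six6 in commissural plate cells was at 15.0 CPM in WT and 4.08 CPM in Tcf4_cKO, a ratio of 0.27 (0.17 to 0.41), the 1 call of this list between genotypes.

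Of 8 tested Wnt pathway genes known as targets or partners of Six3 or Zic factors, 0 were higher and 5 lower in subpallial than pallial cells of WT, and in Tcf4_cKO 1 of 10 was higher and 5 lower. Without Wnt8b the counts were 0 and 4 of 7 in WT, and 1 and 4 of 9 in Tcf4_cKO. Wnt8b, which Six3 is known to repress and which served as a marker in calling pallial cells, was at 0.31 CPM in subpallial and 17.3 CPM in pallial WT cells, and Sfrp1, a secreted Wnt inhibitor, at 46.9 and 195 CPM. Between genotypes 0 passed in subpallial and pallial cells, and Sfrp1 was higher in commissural plate cells, at 103 CPM in WT and 166 CPM in Tcf4_cKO. Of the 13 tested genes of the rostral midline, 5 were higher and 3 lower in subpallial WT cells and 4 and 4 in Tcf4_cKO; of the 4 tested that were no region markers, 2 were higher and 1 lower in WT, and 2 and 2 in Tcf4_cKO. Between genotypes Spry1 and Etv4 were lower in pallial cells, at 17.9 and 9.64 CPM and at 13.9 and 7.26 CPM. In commissural plate cells, which were called by genes that include Fgf8, Fgf17 and Spry1, Fgf17 was at 185 and 108 CPM, a ratio of 0.59 (0.54 to 0.64), Spry1, an inhibitor of FGF signalling, at 128 and 71.5 CPM, and Nr2f1, a gene of caudal and lateral cortex, at 7.44 and 23.3 CPM. Cluster 22, led by Fgf17, made up 294 of the 1083 WT and 111 of the 683 Tcf4_cKO cells of the commissural plate, and its part in these ratios was not tested. The members' ratios in the same cells lay between 0.87 and 0.94.

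Of the 10 septal neuron genes, 10 were 1.5-fold higher in subpallial cells of WT and 8 in Tcf4_cKO, where Ebf1 was lower. Lhx8, Isl1 and Nkx2-1 were themselves used in calling subpallial cells; of the other 7 genes, 7 were higher in WT, and 5 were higher and 1 lower in Tcf4_cKO. Between genotypes, in subpallial cells, 3 were higher and 1 lower. Lhx8, a gene of cholinergic neurons, was at 78.3 and 140 CPM, Nkx2-1 at 66.1 and 134 CPM and Gbx1 at 4.61 and 13.2 CPM, while Ebf1 was at 73.1 and 17.3 CPM. The clusters led by these genes differed in size between the libraries: cluster 10 (Lhx8 and Nkx2-1) held 230 WT and 445 Tcf4_cKO cells, cluster 28 (Gbx1) 29 and 158, and cluster 25 (Ebf1) 163 and 115. Within cluster 10, Lhx8 was at 718 and 728 CPM. The members' log2 ratios in the same cells lay between -0.15 and 0.11.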

How the data were processed

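The authors deposited raw UMI counts per gene and barcode for 2 libraries, 1 WT and 1 Tcf4_cKO, empty droplets included; the values are not normalized. Counting used Cell Ranger, version 7.1.0 per the file headers and 2.1.1 per the submitters' processing notes, which also name mm10; whether strand or introns were counted is not given in the sources used here. The libraries held 116998498 and 121321247 UMIs in 2414768 and 1872751 barcodes.

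Barcodes over 3348 UMIs in WT and 3341 in Tcf4_cKO (the 99th percentile of the top 5000 barcodes, divided by 10) were kept where they had 500 or more genes and mitochondrial UMIs of no more than 10%, and 330 and 526 doublets (3.68% and 4.93%) called by Scrublet in scanpy 1.11.5 were removed. Cells were clustered on 2000 variable genes, 30 principal components and 15 neighbours (Leiden, resolution 1, leidenalg 0.10.2 and igraph 0.11.9), with the members and close relatives kept out of the clustering. No batch correction was made: on average 65.1% of the neighbours of a WT cell and 68.4% of those of a Tcf4_cKO cell came from its own library. Clusters were named from marker lists, and the naming rules were set with the clusters in view. UMIs were summed per class and library and given as CPM. Poisson intervals, conditional binomial intervals of ratios and Clopper-Pearson intervals of shares (scipy 1.17.1) are exact, at 95%, and cover counting error only. Genes with at least 20 UMIs in a comparison were set against a fold of 1.5 on log2(CPM + 5). For shares of cells, each cell was thinned to 3000 UMIs. Free RNA, measured in droplets of 10 to 100 UMIs, made up an estimated 2.27% and 1.19% of neuron UMIs.

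The genes named are the 5 members, 5 gene lists, Tcf4 and, for each member, the 5 genes with the highest r over clusters; 1 gene is not reported here. Members, lists and markers were chosen with earlier results of these data known. Alternatives covered the resolution, doublets, the UMI minimum, the mitochondrial limit, regions called per cell, thinning, free RNA, the pseudocount and equal weighting of shared clusters; leaving out clusters over 90% of 1 library was added after seeing the data.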

Additional observations from a re-analysis of the deposited data

Results flagged for a closer look

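Zic1 differed between genotypes in opposite directions in the 2 regions. Its Tcf4_cKO over WT ratio was 0.969 (0.953 to 0.985) in subpallial cells and 1.05 (1.02 to 1.08) in pallial cells, so the counting intervals lay on opposite sides of 1. The difference between the regions was not tested, since each genotype had 1 library. Both ratios changed side when the clusters shared by the libraries were weighted equally.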

How the results depend on the processing

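The count of members past 1.5-fold was 5 in each library for subpallial over pallial cells under the main settings and 10 alternatives, and 0 between genotypes in subpallial and in pallial cells under 11. Between genotypes, 5 log2 ratios changed sign under at least 1 alternative. Six3 in subpallial cells was at 0.11 and, with regions called per cell, at -0.0176. With shared clusters weighted equally (10 subpallial and 9 pallial clusters), Zic1 went from -0.04 to 0.0353 in subpallial and from 0.07 to -0.134 in pallial cells, and Zic2 from -0.07 to 0.0348 in subpallial cells. Zic5 in pallial cells, at -0.02 with an interval of its ratio that holds 1, was at 0.0877 with the UMI minimum doubled and at 0.0028 with shared clusters weighted equally. The cause was not tested. These values are small, and without replicate libraries the spread between embryos is unknown. No paired analysis was possible because each genotype had 1 library, and for the same reason no library could be left out. Depth limits the low levels: Six3 in pallial classes, and all members in clusters with few cells, rest on few UMIs.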

Other observations

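Of the clusters that no comparison uses, the unnamed cluster 31 (led by Cldn5, Igfbp7 and Rgs5, with 56 WT and 38 Tcf4_cKO cells) had 182 CPM Zic1 in WT and 184 CPM in Tcf4_cKO, and 9.01 and 27.5 CPM Six3 from 13 and 35 UMIs. Cluster 35, led by Ptgds and the pigment cell genes Mlana and Pmel, had 10 Zic1 UMIs and no Zic2 UMI in 43 WT cells, where 3 counts, the limit taken for a count of 0, would be 4.95 CPM. In free RNA of near-empty droplets, Zic1 was at 411 CPM in WT and 393 CPM in Tcf4_cKO, and Six3 at 59.7 and 73.1 CPM.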
